A study of Mus musculus with 6 samples.

Results

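The genes described here are 42 mouse genes that build, sort into, move or release extracellular vesicles: the subunits of the ESCRT complexes with their VPS4 ATPase, the ALIX, syntenin and syndecan route, vesicle Rab GTPases, fusion SNAREs, and proteins that act on membrane lipids or lipid domains. The list was drawn up by function with earlier results of these data known, its genes were taken from the table by symbol, and all 42 were among its 23951 genes. RNA was measured in 3 mouse melanoma cell lines, with 2 libraries of each. B16-F1 is the parental line, poorly metastatic and obtained from a public repository. B16-F1R2, called the lymph node line below, was recovered from lymph nodes colonised by B16-F1 cells. B16-F1R2L, called the lung line, came from a lung colony that went back to a lymph node metastasis. Both were supplied by 1 laboratory in Zurich. All cells were untreated and grown in the same serum-containing medium, and no line carries an engineered allele by its labels. Each metastatic variant is a single line, so the line, its supplier and its culture history cannot be told apart, and whether a line's 2 libraries are separate cultures is not given in the sources used here. The p-values below therefore measure the spread between these libraries, which may be technical.

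Exosomes, the small vesicles of endosomal origin, start as buds into the lumen of a late endosome. ESCRT-0 gathers ubiquitinated cargo, ESCRT-I and ESCRT-II shape the bud, ESCRT-III filaments cut its neck, and the VPS4 ATPase takes the filaments apart. A parallel route runs through syndecans, whose tails bind syntenin, which in turn binds ALIX and so reaches ESCRT-III. Rab GTPases then carry the filled endosome to the plasma membrane or to the lysosome, and SNARE proteins fuse the membranes. In pigment cells the same endosomal machinery also serves the melanosome, and Rab27a is best known there as the link between melanosomes and actin transport. The study isolated small vesicles from B16-F1 and B16-F1R2 cells, so the comparison asks whether the RNA of the vesicle machinery differed between these lines. It is RNA of whole cells and not of vesicles.

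Values are FPKM, fragments per kilobase of transcript and per 1000000 mapped fragments, as the authors deposited them. A gene was tested when it reached 1 FPKM in at least 2 libraries, which 11379 genes and 39 of the 42 did. Differences are log2 fold changes of FPKM with 0.1 added, given with their standard error (SE), and a gene is called higher or lower when limma's p-value, adjusted over all tested genes, is under 0.05. Where lines are said not to overlap, this only describes the values. An exact permutation test of 2 against 2 libraries cannot go below 0.333. The share of all tested genes without overlap was not counted. From the most common low value of FPKM times transcript length, the depth was roughly estimated at 12400000 to 14600000 reads a library. The FPKM of a library added up to 596657 to 672794. The melanocyte markers Pmel, Mlana, Tyrp1 and Dct were at 1198 FPKM or more in all 6 libraries, while Ptprc of leukocytes, Cdh5 of endothelium, Dcn and Lum of fibroblasts, Krt5 of keratinocytes and Sftpc of the lung were listed at 0 in all 6. Other markers of these cell types were not at 0. Among them Cd79a, Pecam1 and Col1a1 were higher in the variants and Pdpn and Prox1 were lower, as given with the last results.

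Most of the machinery was well expressed and shifted little between the lines. The median of the genes' mean levels was 35.1 FPKM, against 13.4 FPKM over all tested genes, and 38 of the 42 averaged at least 10 FPKM. In B16-F1R2 against B16-F1, 6 of the 39 tested genes were higher and 21 were lower, 15.4% and 53.8%. Over all tested genes, 28.2% were higher and 27.2% were lower. The median log2 fold change was -0.22 for the vesicle genes and 0.0046 over all tested genes, while the median size of the change, whatever its sign, was 0.26 and 0.27. Past a 2-fold change stood 1 vesicle gene, Rab7l1, which is 2.56% of them, against 10.7% of all tested genes. The lower share was also above that of genes averaging at least 10 FPKM, a limit chosen after the values were seen. This limit sets a floor and does not match levels. Among the 6655 genes past it, 27.1% were higher and 32.0% lower. Of the 38 vesicle genes past it, 13.2% were higher and 55.3% lower. In B16-F1R2L the gap past that limit was smaller, with 34.9% of all such genes lower against 42.1% of the vesicle genes.

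**Figure D1:**
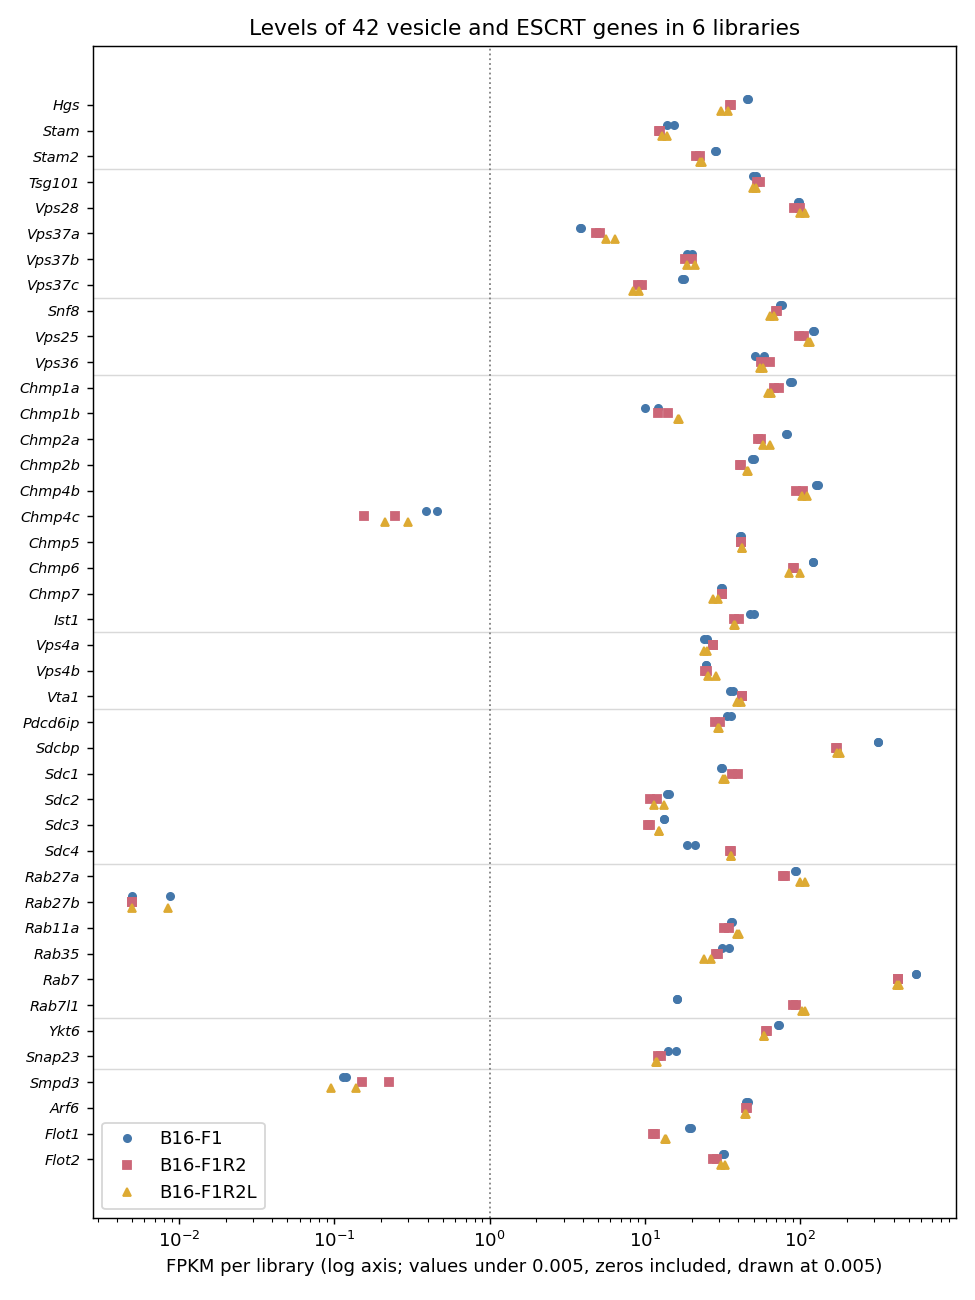
Level of each of the 42 genes in each of the 6 libraries, in FPKM on a log axis, grouped by role with grey lines between the roles and a dotted line at 1 FPKM. Chmp4c, Rab27b and Smpd3 lie below 1 FPKM in every library, and for most other genes the points of the 3 lines lie close together, with Rab7l1 the widest gap between lines.

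B16-F1R2L was compared with the same 2 B16-F1 libraries, so this comparison is not independent of the previous one. In B16-F1R2L, 6 of the 39 were higher and 16 lower, 15.4% and 41.0%, where 29.5% of all tested genes were higher and 27.1% lower. The median log2 fold change was -0.12 for the vesicle genes and 0.02 over all tested genes. When each library was instead rescaled to the same total FPKM, the counts became 10 higher and 13 lower, and the median of all tested genes moved from 0.02 to 0.12. Between B16-F1R2L and B16-F1R2, 5 of the 39 were higher, 1 was lower and 33 were not called, which is 12.8% higher and 2.56% lower against 12.1% and 10.5% of all tested genes. After the same rescaling limma called 12 higher and 0 lower, with 1 lower gene at an unadjusted p under 0.05, and the median of all tested genes moved from 0.02 to 0.13. The counts of this last comparison also rested on single libraries: 1 gene was called higher without either B16-F1 library, without B16-F1R2 replicate 1 or without B16-F1R2L replicate 2, 2 without B16-F1R2 replicate 2, and 3 without B16-F1R2L replicate 1.

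**Figure D2:**
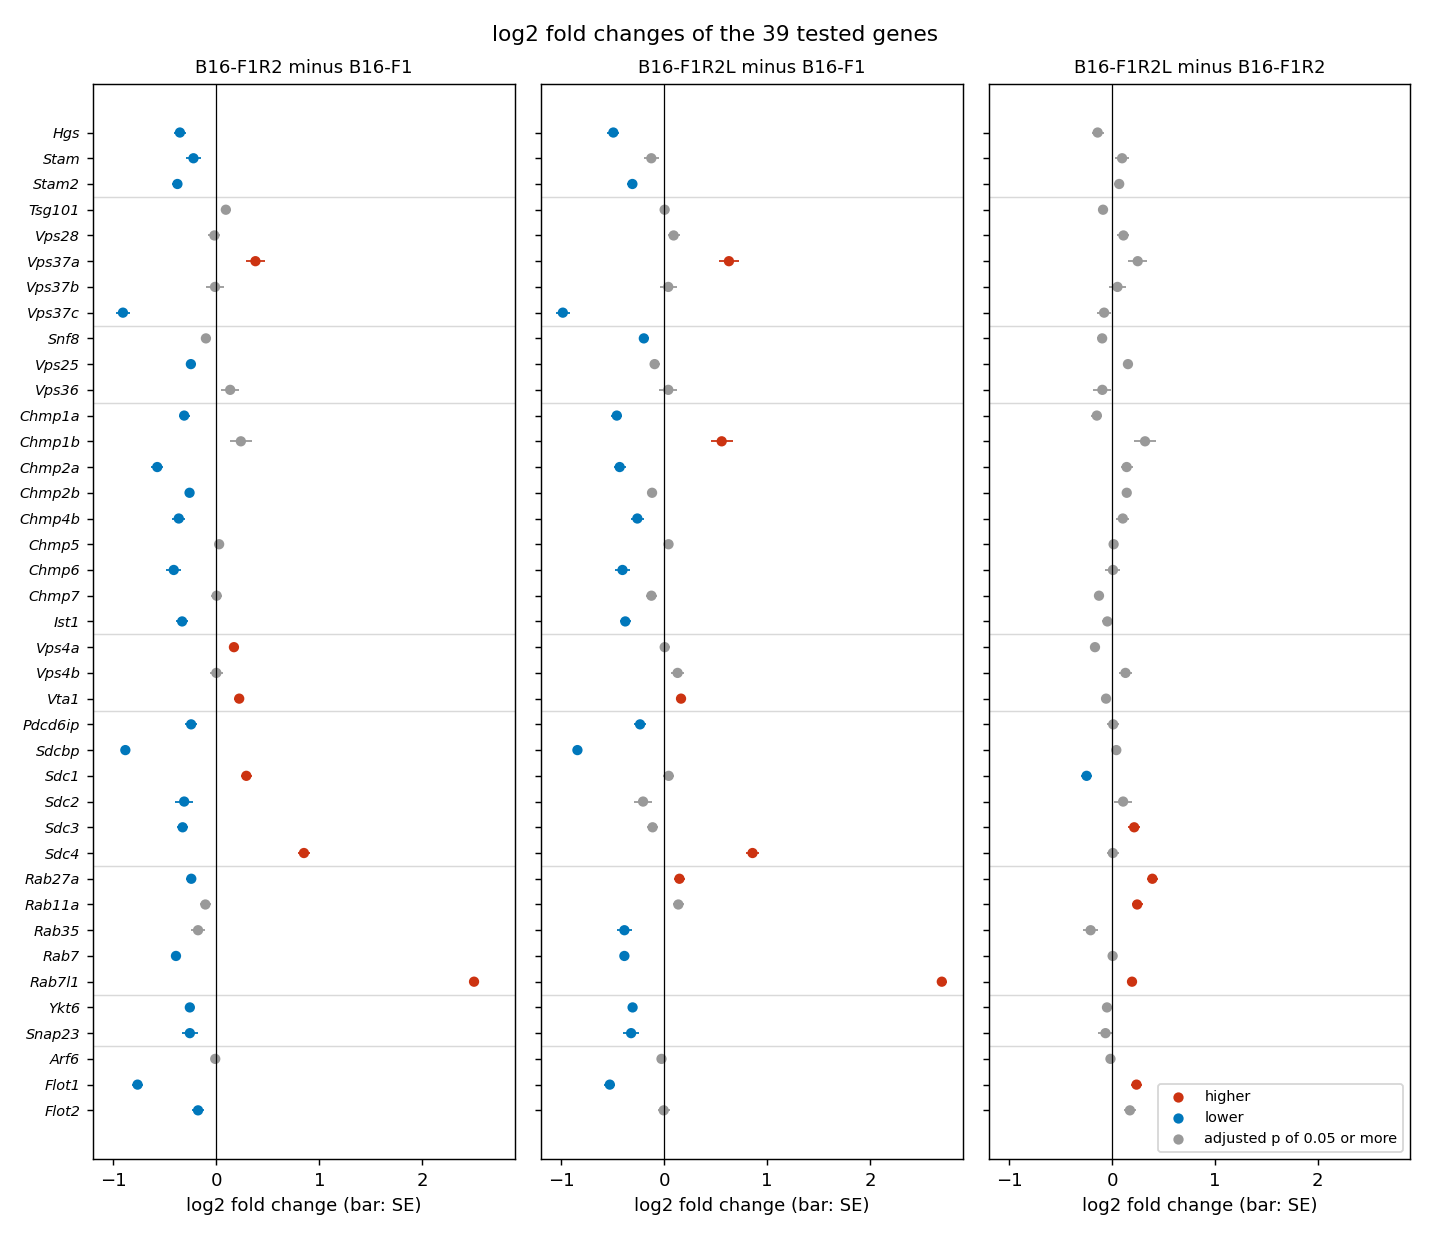
log2 fold change with its SE for the 39 tested genes in the 3 comparisons, coloured by call and grouped by role. In the first 2 panels the lower calls outnumber the higher ones, 21 to 6 and 16 to 6, and Rab7l1 stands alone beyond 2. In the third panel all points lie within 0.5 of 0.

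Rab7l1 changed most. It encodes a Rab GTPase of the Golgi and endolysosomes, now called Rab29, which recruits the kinase LRRK2, and it lies at chr1:133763801-133769464 on the plus strand in NCBI37/mm9, the build of the authors' alignment. Its level was 16.01 and 16.2 FPKM in the parental cells, 89.2 and 94.4 in the lymph node line and 102 and 108 in the lung line. Every library of the metastatic variants was thus above both B16-F1 libraries, and the B16-F1R2L libraries were above the B16-F1R2 ones. The log2 fold change over B16-F1 was 2.50 ± 0.05 (SE) for the lymph node line and 2.70 ± 0.05 for the lung line, or 5.67-fold and 6.49-fold, with adjusted p of 5.25e-07 and 4.43e-07. Between the lung and lymph node lines the log2 difference was 0.19 ± 0.05 with an adjusted p of 0.037, and that call was lost in 8 of 16 alternative analyses, with adjusted p up to 0.166, among them those without either B16-F1 library, either B16-F1R2 library or B16-F1R2L replicate 2. None of the 1395 stretches of 50 bases, the length of the reads, in the Rab7l1 transcripts occurred elsewhere in the genome.

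Rab7l1 rose more than the genes around it for which a fold change can be given. These neighbours were looked at after the Rab7l1 values were seen, as the 5 tested genes closest to it upstream and the 5 downstream. For the 9 of them at 1 FPKM or more in both B16-F1 libraries, the median log2 fold change was 0.05 in B16-F1R2, over a range from -0.25 to 1.31, with 3 called higher, or 33.3% beside 28.2% of all tested genes, and 0.31 in B16-F1R2L, over a range from 0.09 to 1.60, with 7 called higher, or 77.8% beside 29.5%. The difference between these counts was not tested. Nucks1, the nearest gene downstream, was at 72.9 and 69.4 FPKM in the parental cells and 70.5 and 74.0 in the lymph node line, a log2 change of 0.02 ± 0.06 with an adjusted p of 0.766. In the lung line it was at 77.1 and 83.5 FPKM, a rise by 0.17 ± 0.06 with an adjusted p of 0.037, which was lost in 8 of 16 alternative analyses with adjusted p up to 0.189, among them those without either B16-F1 library, either B16-F1R2 library or B16-F1R2L replicate 2. Slc41a1, the nearest upstream, rose in B16-F1R2 by 0.27 ± 0.08 on the log2 scale with an adjusted p of 0.025, a call lost under quantile normalization, without B16-F1 replicate 2 and without B16-F1R2 replicate 1, with adjusted p up to 0.133. Larger rises were seen at Cdk18, from 5.61 and 5.86 FPKM to 14.6 and 14.2, and at 5430435G22Rik, which RefSeq calls Rab7b and which went from 0.0279 and 0 FPKM to 0.874 and 0.947 in the lymph node line and 1.66 and 2.33 in the lung line. The 5430435G22Rik fold change is not given, since its B16-F1 level was at the limit of detection.

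**Figure D3:**
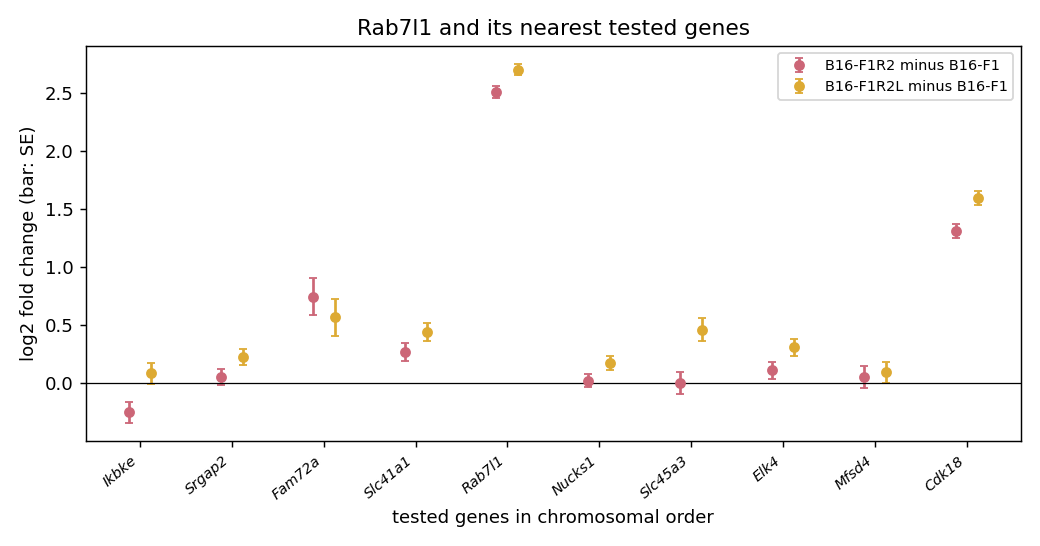
log2 fold change against B16-F1, with its SE, of Rab7l1 and 9 of its 10 closest tested genes in chromosomal order, for B16-F1R2 and B16-F1R2L, with 5430435G22Rik left out. Rab7l1 at 2.50 and 2.70 is flanked by Slc41a1 at 0.27 and 0.44 and by Nucks1 at 0.02 and 0.17.

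The 250 bases before the annotated start are shown for the gene that rose most, the other gene that rose by over 0.8 on the log2 scale in both variants, and the gene with the largest fall. They are RefSeq sequences on GRCm38.p6, a later build than that of the alignment, written 5′ to 3′ on the gene's strand with each CG dinucleotide in capitals. Rab7l1 is chr1:131867027-131867276 on the plus strand, Sdc4 is chr2:164443189-164443438 on the minus strand, and Vps37c is the first of its 2 RefSeq starts, chr19:10688485-10688734 on the plus strand.
Rab7l1: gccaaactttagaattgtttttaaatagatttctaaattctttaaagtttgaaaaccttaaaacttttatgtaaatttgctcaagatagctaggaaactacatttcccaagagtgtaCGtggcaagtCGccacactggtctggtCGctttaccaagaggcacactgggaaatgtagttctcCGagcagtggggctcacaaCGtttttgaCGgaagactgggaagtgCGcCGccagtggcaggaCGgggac
Sdc4: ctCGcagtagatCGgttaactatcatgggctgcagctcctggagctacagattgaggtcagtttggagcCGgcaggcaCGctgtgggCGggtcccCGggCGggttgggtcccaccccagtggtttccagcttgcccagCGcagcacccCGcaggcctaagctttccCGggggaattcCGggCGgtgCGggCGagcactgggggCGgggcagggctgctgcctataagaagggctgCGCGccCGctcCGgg
Vps37c: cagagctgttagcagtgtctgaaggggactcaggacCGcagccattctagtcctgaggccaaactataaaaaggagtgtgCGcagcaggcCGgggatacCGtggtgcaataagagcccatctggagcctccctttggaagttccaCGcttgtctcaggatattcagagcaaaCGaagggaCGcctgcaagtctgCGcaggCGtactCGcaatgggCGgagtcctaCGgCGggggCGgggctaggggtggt
Rab7l1 had 9 CG dinucleotides and a GC content of 44.0%, Sdc4 had 19 and 68.0%, and Vps37c had 14 and 58.8%. Of the 42 genes, 28 had an entry in the table, with 31 starts in all. Their median was 17 CG dinucleotides and 61.6% GC, against 6 and 52.4% over all 32851 starts, and only 2 of the 31 starts had fewer CG than that of Rab7l1. The E-box CACGTG, which is its own reverse complement and can be bound by MITF, the master regulator of pigment cells, was found from 250 bases before to 50 after the start in 2 of the 28 genes, or 7.14%, against 8.09% of all 27025 genes. It was in none of the 3 sequences shown, which says only that these letters are not in those windows.

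In ESCRT-0, the cargo-binding complex at the head of the pathway, all 3 genes were lower in B16-F1R2. Of all tested genes 27.2% were lower, and of those averaging at least 10 FPKM 32.0%. The call of Stam did not hold in every alternative analysis. Hgs, which encodes the scaffold HRS, was at 45.1 and 46.2 FPKM in the parental cells, 35.4 and 36.0 in the lymph node line and 34.0 and 30.8 in the lung line. Stam2, a partner of HRS, was at 28.8 and 28.4 FPKM, then 21.4 and 22.5, then 22.7 and 23.3. For both genes the B16-F1 libraries were above the other 4. Hgs fell by 0.35 ± 0.06 in B16-F1R2 and by 0.49 ± 0.06 in B16-F1R2L on the log2 scale, with adjusted p of 0.0025 and 0.00061. Stam2 fell by 0.38 ± 0.05 and by 0.31 ± 0.05, with adjusted p of 0.00098 and 0.0023. Stam, the other partner, lay between 12.4 and 15.3 FPKM over the 6 libraries and fell by 0.22 ± 0.07 in B16-F1R2 with an adjusted p of 0.035, a call lost in 6 of 16 alternative analyses, with adjusted p up to 0.189, among them those without B16-F1 replicate 1 or either B16-F1R2 library. It had a log2 change of -0.13 ± 0.07 in B16-F1R2L with an adjusted p of 0.172. The summed level of the complex was 89.1 and 88.4 FPKM in B16-F1 and between 67.9 and 71.03 in the other 4 libraries.

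ESCRT-I binds cargo through Tsg101 and carries 1 of several interchangeable Vps37 subunits, and it was these that changed, in opposite directions. Vps37c was at 17.2 and 17.8 FPKM in the parental cells, 9.02 and 9.56 in the lymph node line and 9.20 and 8.41 in the lung line. Vps37a was at 3.81 and 3.86, then 4.87 and 5.17, then 5.61 and 6.38 FPKM. The lines did not overlap for Vps37a, and for Vps37c both variants lay well below B16-F1. Vps37c fell by 0.91 ± 0.07 and by 0.99 ± 0.07 on the log2 scale, to 0.533 and 0.505 of the B16-F1 level, with adjusted p of 0.00011 and 7.7e-05. Vps37a rose by 0.38 ± 0.09 and 0.63 ± 0.09, with adjusted p of 0.014 and 0.0018. The first of these calls was lost under quantile normalization, without either B16-F1 library and without B16-F1R2 replicate 2, with adjusted p up to 0.073. Vps37b had log2 changes of -0.01 and 0.04, each with an SE of 0.08 and adjusted p of 0.902 and 0.708.

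The make-up of the Vps37 family is given as shares of the sum of Vps37a, Vps37b and Vps37c, which were not tested. Vps37d, of the wider list, is left out of that sum. It lay between 1.63 and 2.59 FPKM and was called in no comparison. Vps37c made up 43.5% and 42.6% of the summed Vps37 FPKM in the parental libraries, 26.5% and 29.1% in the lymph node line, and 25.7% and 25.1% in the lung line. Vps37b was the most abundant in every library, at 46.9% and 48.1% of the sum in B16-F1 and 55.2% to 59.2% in the variants. Of the invariant subunits, Tsg101 lay between 49.6 and 54.8 FPKM and Vps28 between 91.3 and 107 FPKM over the 6 libraries, and neither was called in any comparison. In Tsg101, 21.6% of the 50-base stretches also occur elsewhere in the genome, so its reads could have been shared with other loci, and the exons of Vps28 overlap those of Tonsl on the same strand, which was at 5.97 to 8.12 FPKM.

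**Figure D4:**
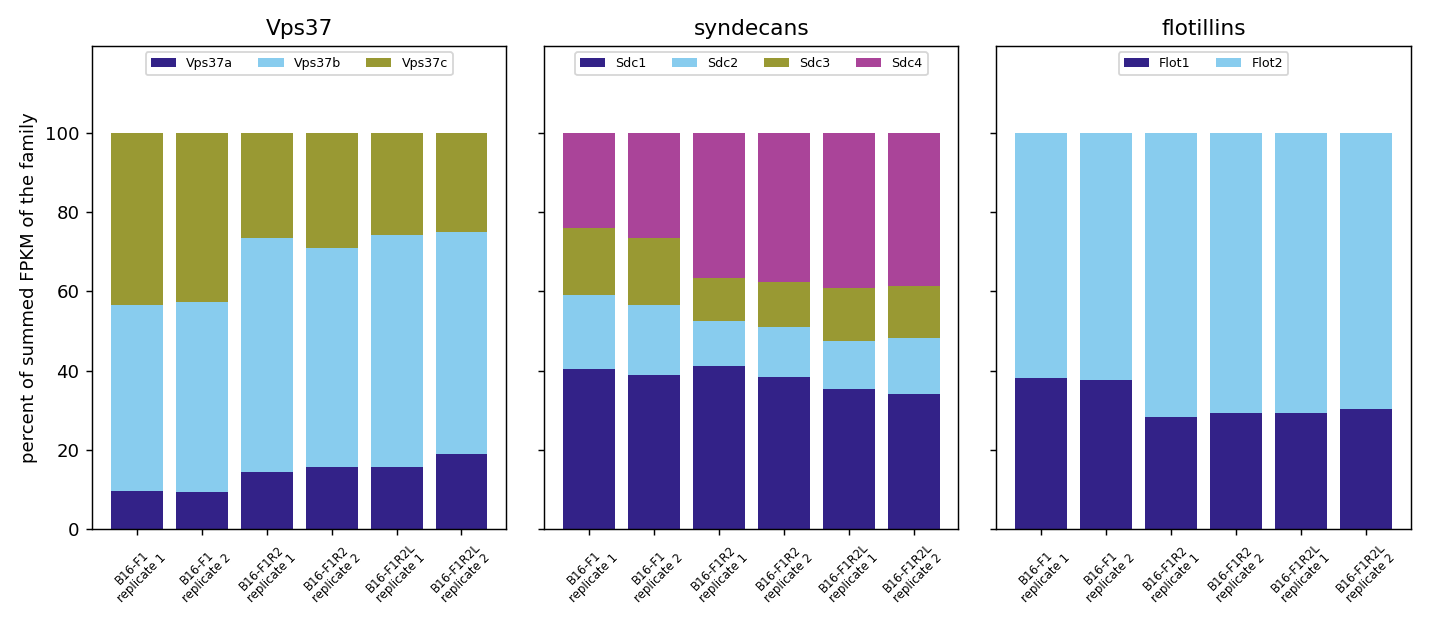
Share of each paralog in the summed FPKM of the Vps37, syndecan and flotillin families, in percent, with 1 bar per library and Vps37d left out. Vps37c and Flot1 take smaller shares and Sdc4 a larger share in all 4 libraries of the variants than in the 2 B16-F1 libraries.

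ESCRT-II, the bridge from ESCRT-I to ESCRT-III, showed small changes. Vps25 was at 120.1 and 122.1 FPKM in the parental cells, 106 and 98.3 in the lymph node line and 112 and 115 in the lung line, and fell by 0.25 ± 0.05 on the log2 scale in B16-F1R2 with an adjusted p of 0.0052. Its exons overlap those of Ramp2 on the same strand, which was at 6.63 to 10.3 FPKM. Snf8, which lay between 63.6 and 76.8 FPKM, was called lower in B16-F1R2L alone of the 2 variants, by 0.20 ± 0.05 with an adjusted p of 0.014, a call lost without B16-F1 replicate 2, without B16-F1R2L replicate 2, under quantile normalization and with libraries rescaled to 1 total, with adjusted p up to 0.216. Its log2 change in B16-F1R2 was -0.10 ± 0.05. The difference between the variants was -0.10 ± 0.05 with an adjusted p of 0.196. Vps36 lay between 51.2 and 64.3 FPKM and was called in no comparison.

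ESCRT-III supplies the filaments that close the vesicle neck, and most of its genes were lower. Of its 9 tested genes, 6 were lower in B16-F1R2, which is 66.7% beside 27.2% of all tested genes and 32.0% of those of like level. In B16-F1R2L 5 were lower and 1 higher, 55.6% and 11.1% beside 27.1% and 29.5% of all tested genes. Of those averaging at least 10 FPKM, 34.9% were lower and 24.8% higher. Chmp2a, which with CHMP3 caps the filaments and recruits VPS4, was at 81.3 and 82.0 FPKM in the parental cells, 56.0 and 53.6 in the lymph node line and 63.7 and 57.4 in the lung line. Chmp6, which nucleates the filaments from ESCRT-II, was at 121 FPKM in both B16-F1 libraries, 90.4 and 91.6 in the lymph node line and 99.0 and 84.7 in the lung line. Both fell in both variants with no overlap with B16-F1. Chmp2a fell by 0.58 ± 0.06 and by 0.43 ± 0.06 on the log2 scale, with adjusted p of 0.00036 and 0.0012. Chmp6 fell by 0.41 ± 0.07 in either variant, with adjusted p of 0.0035 and 0.0039.

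The main filament subunit Chmp4b was at 125 and 129 FPKM in the parental cells, 104 and 94.0 in the lymph node line and 109.97 and 103 in the lung line. It fell by 0.37 ± 0.06 and by 0.26 ± 0.06, with adjusted p of 0.003 and 0.012. The second call was lost under quantile normalization, without B16-F1 replicate 2 and without B16-F1R2L replicate 2, with adjusted p up to 0.074. Chmp1a and Ist1, late subunits that engage VPS4, also fell in both variants. Chmp1a was at 85.8 and 88.9, then 72.8 and 67.8, then 65.04 and 61.9 FPKM, a fall by 0.31 ± 0.05 and by 0.46 ± 0.05 with adjusted p of 0.0029 and 0.00057. Ist1 was at 47.8 and 50.2, then 37.4 and 40.4, then 37.2 and 38.2 FPKM, a fall by 0.33 ± 0.05 and by 0.38 ± 0.05 with adjusted p of 0.0027 and 0.0016. For both, all 4 variant libraries lay below the B16-F1 pair. In Chmp1a, 17.4% of the 50-base stretches occur elsewhere in the genome.

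The remaining ESCRT-III genes differed among themselves. Chmp1b, the paralog of Chmp1a, was at 12.2 and 10.0 FPKM in the parental cells, 14.0 and 12.2 in the lymph node line and 16.2 and 16.5 in the lung line, so that B16-F1 and B16-F1R2 touched and B16-F1R2L lay above both. It rose in B16-F1R2L by 0.56 ± 0.11 on the log2 scale with an adjusted p of 0.0054, while the change in B16-F1R2 was 0.24 ± 0.11 with an adjusted p of 0.108. Chmp2b, the paralog of Chmp2a, was at 48.7 and 50.4, then 41.7 and 40.9, then 45.2 and 46.0 FPKM. It fell in B16-F1R2 by 0.26 ± 0.04 with an adjusted p of 0.0025, and its change in B16-F1R2L was -0.12 ± 0.04 with an adjusted p of 0.052. Chmp5 stayed between 40.6 and 42.3 FPKM over the 6 libraries and Chmp7, which acts at the nuclear envelope, between 27.6 and 31.5. Neither was called. The summed level of the 10 ESCRT-III genes among the 42 was 595.2 and 604.6 FPKM in the parental cells. It was 489.4 and 473.6 in the lymph node line and 508 and 477.6 in the lung line. Chmp3, which stands in the wider list described below, is not in that sum. Its level was 77.9 and 76.1 FPKM, then 53.7 and 50.4, then 49.2 and 53.3. Chmp3 fell by 0.56 ± 0.06 and by 0.59 ± 0.06 on the log2 scale, with adjusted p of 0.00034 and 0.00029.

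Chmp4c, the paralog that delays the last step of cell division, was below the limit for testing. It was at 0.460 and 0.390 FPKM in the parental cells, 0.247 and 0.156 in the lymph node line and 0.211 and 0.297 in the lung line. By the depth estimate these values are worth 4.2 to 12 reads each, so a difference cannot be read from them.

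Of the 3 genes of the disassembly step, 2 were called higher in the lymph node line and 1 in the lung line, with 0 lower. That is 66.7% and 33.3% higher, beside 28.2% and 29.5% of all tested genes. Among genes averaging at least 10 FPKM, 27.1% and 24.8% were higher. The difference in direction from ESCRT-III was not tested. Vta1, the cofactor that activates VPS4, lay between 35.4 and 36.7 FPKM in the parental cells and between 39.1 and 42.09 in the variants, and rose by 0.22 ± 0.05 and 0.16 ± 0.05 on the log2 scale, with adjusted p of 0.009 and 0.028. The first call was lost without B16-F1 replicate 1, with an adjusted p of 0.0635, and the second in 5 of 16 alternative analyses, with adjusted p up to 0.146, among them those without either B16-F1 library or B16-F1R2L replicate 1. The ATPase gene Vps4a lay between 23.95 and 27.6 FPKM and rose in B16-F1R2 by 0.17 ± 0.05 with an adjusted p of 0.026, a call lost without any 1 of the 4 libraries compared, with adjusted p up to 0.142. In B16-F1R2L its log2 change was 0.0047 ± 0.05. Vps4b lay between 24.3 and 28.7 FPKM and was called in no comparison. The exons of Vps4a overlap those of Pdf on the other strand, which was at 23.0 to 28.3 FPKM. The library kit keeps strand, but whether the counting used it is not given in the sources used here. Of all 23 tested ESCRT and VPS4 genes, none was called between B16-F1R2L and B16-F1R2 by limma, with 8 at an unadjusted p under 0.05 and log2 differences from -0.17 to 0.32, where 12.1% of all tested genes were higher and 10.5% lower.

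Syntenin was the most abundant gene of the ALIX route and lost the most RNA. Sdcbp, its gene, was at 315 and 318 FPKM in the parental cells, 174 and 169.6 in the lymph node line and 172 and 181 in the lung line. The 4 variant libraries lay close together and far below B16-F1. The fall was by 0.88 ± 0.04 in B16-F1R2 and by 0.84 ± 0.04 in B16-F1R2L on the log2 scale, to 0.542 and 0.557 of the B16-F1 level, with adjusted p of 1.68e-05 and 1.92e-05. It kept its call in all 16 alternative analyses. Pdcd6ip, the gene of ALIX, was at 36.0 and 34.0, then 28.4 and 30.6, then 30.0 and 29.4 FPKM, without overlap between B16-F1 and the variants. It fell by 0.25 ± 0.06 and by 0.23 ± 0.06 with adjusted p of 0.011 and 0.013. The first call was lost without B16-F1 replicate 1 or B16-F1R2 replicate 1, with adjusted p up to 0.075, and the second without B16-F1 replicate 1, without B16-F1R2L replicate 2 or with libraries rescaled to 1 total, with adjusted p up to 0.176.

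The 4 syndecans, heparan sulfate proteoglycans whose tails bind syntenin, did not move together. Sdc4, which also sits in focal adhesions, was at 18.7 and 20.9 FPKM in the parental cells, 35.5 and 35.9 in the lymph node line and 36.0 and 35.8 in the lung line. It rose by 0.85 ± 0.06 and 0.86 ± 0.06 on the log2 scale, or 1.80-fold and 1.81-fold, with adjusted p of 8.27e-05 and 7.7e-05. Sdc1 was at 31.5 and 30.9, then 39.9 and 36.6, then 32.6 and 31.7 FPKM. It was the one syndecan high in B16-F1R2 alone: the rise was 0.29 ± 0.06 with an adjusted p of 0.0049, the log2 change in B16-F1R2L was 0.04 ± 0.06, and the difference between the variants was -0.25 ± 0.06 with an adjusted p of 0.027. That difference lost its call in 8 of 16 alternative analyses, with adjusted p up to 0.117, among them those without either B16-F1 library, B16-F1R2 replicate 1 or either B16-F1R2L library. In Sdc1, 10.0% of the 50-base stretches occur elsewhere in the genome.

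Sdc2 and Sdc3 were lower in B16-F1R2. Sdc2 was at 14.4 and 14.0 FPKM in the parental cells, 10.8 and 11.98 in the lymph node line and 11.4 and 13.2 in the lung line, a fall in B16-F1R2 by 0.31 ± 0.09 with an adjusted p of 0.025, which was lost without either B16-F1 library, without B16-F1R2 replicate 1 and with libraries rescaled to 1 total, with adjusted p up to 0.13. Sdc3 was at 13.3 and 13.4, then 10.4 and 10.8, then 12.2 and 12.4 FPKM, with B16-F1R2L between the other lines. It fell in B16-F1R2 by 0.33 ± 0.06 with an adjusted p of 0.0029 and was higher in the lung line than in the lymph node line by 0.22 ± 0.06 with an adjusted p of 0.038, a call lost in 9 of 16 alternative analyses, with adjusted p up to 0.159, among them all 6 that left out 1 library. Sdc4 made up 24.0% and 26.4% of the summed syndecan FPKM in the parental cells, 36.7% and 37.7% in the lymph node line, and 39.1% and 38.4% in the lung line. The syndecan sum itself was 78.0 and 79.1 FPKM in B16-F1 and between 92.3 and 96.6 in the variants.

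**Figure D5:**
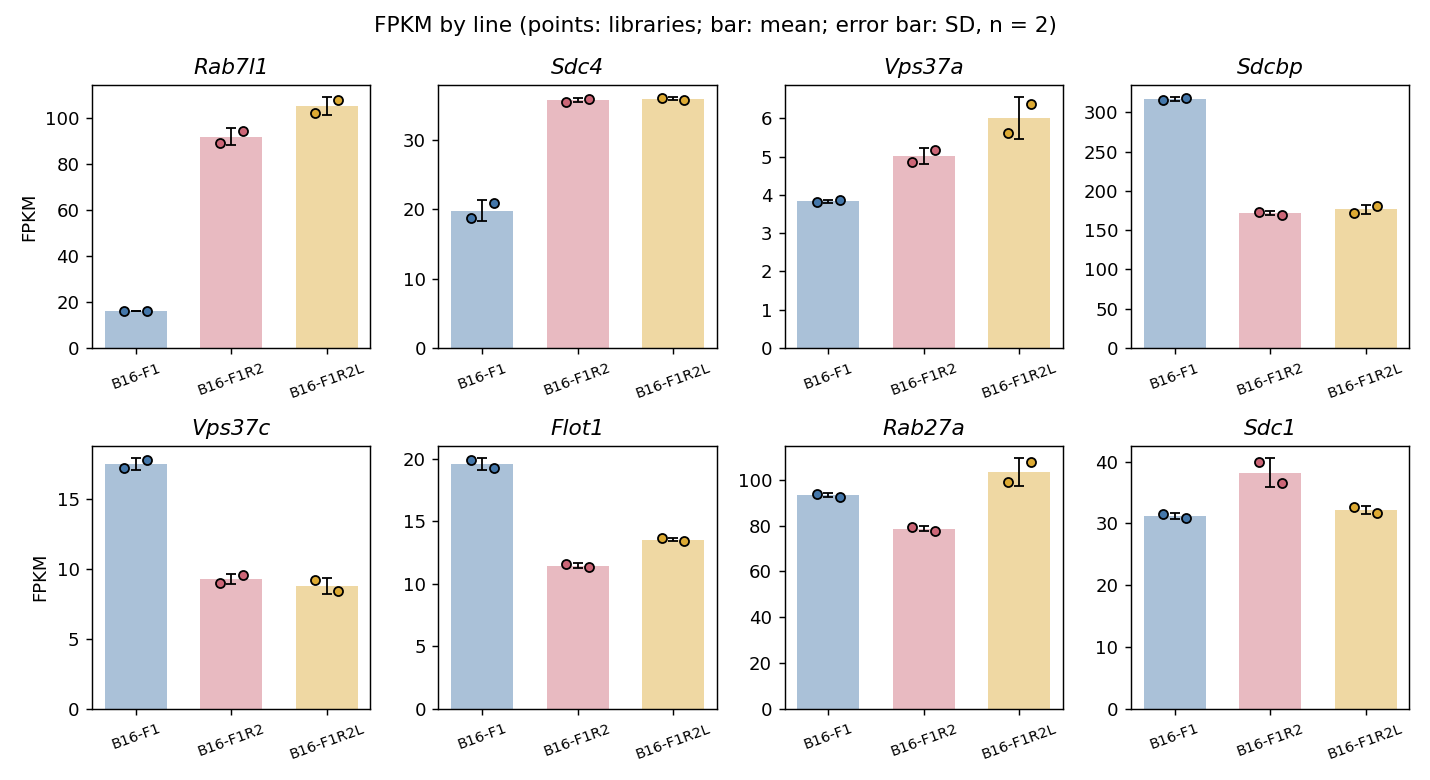
FPKM of 8 genes in the 3 lines, with a point per library, a bar at the mean and an error bar for the SD of the 2 libraries. Rab7l1, Sdc4 and Vps37a are higher in both variants than in B16-F1, Sdcbp, Vps37c and Flot1 are lower in both, Rab27a is lowest in B16-F1R2 and Sdc1 is highest there.

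Among the other Rab GTPases, Rab27a differed in direction between the variants. It docks late endosomes at the plasma membrane for release. It was at 93.8 and 92.7 FPKM in the parental cells, 79.6 and 77.9 in the lymph node line and 99.2 and 108 in the lung line, with no overlap between any 2 lines. It fell in B16-F1R2 by 0.24 ± 0.05 on the log2 scale with an adjusted p of 0.0068, and the lung line was above the lymph node line by 0.39 ± 0.05 with an adjusted p of 0.007. Both calls held in all 16 alternative analyses. The rise over B16-F1 in B16-F1R2L was 0.15 ± 0.05 with an adjusted p of 0.044 and was lost in 10 of the 16, with adjusted p up to 0.172, among them those without either B16-F1 library, either B16-F1R2 library or B16-F1R2L replicate 2. Its paralog Rab27b was listed at 0 in 4 libraries. In the other 2 the depth estimate gave 0.82 and 0.86 of a read, where a listed value needs at least 1. The estimated read numbers are thus rough, and Rab27b RNA was at the limit of detection.

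Rab7, which directs late endosomes to the lysosome, had the highest level of all 42 genes. It was at 555 and 558 FPKM in B16-F1, 424 in both libraries of the lymph node line, and 417 and 435 in the lung line. It fell by 0.39 ± 0.04 in either variant, with adjusted p of 0.0005 and 0.00053, but 32.2% of its 50-base stretches occur elsewhere in the genome, the largest share of the 42 genes. Rab35, a recycling Rab, was at 31.4 and 34.6, then 28.7 and 29.6, then 26.5 and 23.9 FPKM, and fell in B16-F1R2L by 0.39 ± 0.07 with an adjusted p of 0.0045. Rab11a, of the recycling endosome, lay between 32.3 and 40.4 FPKM. It was higher in the lung line than in the lymph node line by 0.24 ± 0.05 with an adjusted p of 0.025, and it was called against B16-F1 in neither variant. The call was lost in 6 of the 16 alternative analyses, with adjusted p up to 0.112, among them those without either B16-F1 library, B16-F1R2 replicate 1 or B16-F1R2L replicate 2.

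Both fusion SNAREs were lower in both variants, the calls of Snap23 being the less stable. Of all tested genes 27.2% and 27.1% were lower, and of those averaging at least 10 FPKM 32.0% and 34.9%. Ykt6 was at 71.9 and 73.4 FPKM in the parental cells, 60.1 and 61.4 in the lymph node line and 58.6 and 58.8 in the lung line, a fall by 0.26 ± 0.04 and by 0.31 ± 0.04 with adjusted p of 0.0019 and 0.00091. Snap23, a SNARE of the plasma membrane, was at 15.9 and 14.0, then 12.2 and 12.7, then 11.8 and 12.04 FPKM. It fell by 0.26 ± 0.07 and by 0.32 ± 0.07 with adjusted p of 0.025 and 0.011. The first call was lost without B16-F1 replicate 1 or either B16-F1R2 library, with adjusted p up to 0.139, and the second without B16-F1 replicate 1 or with libraries rescaled to 1 total, with adjusted p up to 0.083.

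Of the genes that act on membrane lipids or domains, Flot1 moved most. Flotillins form oligomeric scaffolds in cholesterol-rich membrane. Flot1 was at 19.9 and 19.2 FPKM in the parental cells, 11.6 and 11.3 in the lymph node line and 13.6 and 13.4 in the lung line, so the 3 lines kept apart. It fell by 0.77 ± 0.05 in B16-F1R2 and by 0.53 ± 0.05 in B16-F1R2L, with adjusted p of 7.34e-05 and 0.00034. The difference between the variants was 0.24 ± 0.05 with an adjusted p of 0.027, and it lost its call in 8 of 16 alternative analyses, with adjusted p up to 0.097, among them all 6 that left out 1 library. Flot2 lay between 27.2 and 32.97 FPKM and fell in B16-F1R2 by 0.18 ± 0.06 with an adjusted p of 0.038, a call lost in 6 of 16 alternative analyses, with adjusted p up to 0.175, among them those without either B16-F1 library or B16-F1R2 replicate 2. It had a log2 change of -0.0049 ± 0.06 in B16-F1R2L. The share of Flot1 in the flotillin sum was 38.2% and 37.7% in B16-F1 and 28.4% to 30.4% in the variants.

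Arf6, a GTPase of budding and syntenin trafficking, was the most even gene of this group, between 44.4 and 45.9 FPKM in all 6 libraries. Its log2 changes were -0.01 and -0.03, each with an SE of 0.04. Smpd3, a neutral sphingomyelinase whose ceramide drives a budding route without ESCRTs, was too low to test, at 0.114 and 0.120 FPKM in the parental cells, 0.224 and 0.151 in the lymph node line and 0.0960 and 0.139 in the lung line. These values are worth 2.6 to 6.3 reads each by the depth estimate. The sphingomyelinase of the lysosome, Smpd1, was well above it, at 63.1 and 62.7, then 29.1 and 29.0, then 33.4 and 34.7 FPKM.

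A wider list of 89 genes of the same pathway, chosen by function and holding none of the 42, also held more lower than higher genes. Against B16-F1, 12 of its 78 tested genes rose and 39 fell in the lymph node line, and 14 rose and 37 fell in the lung line. That is 15.4% and 50%, then 17.9% and 47.4%, beside 28.2% and 27.2%, then 29.5% and 27.1% of all tested genes. Without Unc13d and Sgms2, which reached the limit for testing through the variants alone, 10 and 12 of 76 rose. With libraries rescaled to 1 total, 16 of the 78 rose and 23 fell in the lung line. Fusion machinery leaned furthest, with 12 of 15 tested genes lower in B16-F1R2, and 10 of 15 lower in B16-F1R2L. Of the ESCRT accessory genes, 12 of 20 were lower and 2 higher in B16-F1R2. The counts of higher genes fell to 7 in B16-F1R2 without B16-F1 replicate 1 or B16-F1R2 replicate 1, and without B16-F1 replicate 2 those of B16-F1R2L fell to 8 higher and 24 lower. Vamp7 was listed at 0 in all 6 libraries, and nothing is read from that.

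The largest rises of that list in B16-F1R2 were at Unc13d, Sgms2 and Limk1. For the reason given, the levels of the first 2 are given without a test. Unc13d, which encodes the RAB27A effector Munc13-4, was at 0.0467 and 0.197 FPKM in the parental cells, 3.30 and 3.40 in the lymph node line and 5.33 and 4.99 in the lung line. Sgms2, a sphingomyelin synthase, was at 0.534 and 0.478, then 1.22 and 1.55, then 1.37 and 1.44 FPKM. Limk1, a kinase of actin turnover, rose by 0.88 ± 0.08 with an adjusted p of 0.00026. The largest falls were at Cav1, the caveolin gene, by 1.27 ± 0.15 with an adjusted p of 0.00064, Smpd1, by 1.11 ± 0.04 with an adjusted p of 6.75e-06, and the flippase gene Atp9a, by 1.07 ± 0.05 with an adjusted p of 1.7e-05.

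Between B16-F1R2L and B16-F1R2, 14 of the 78 were higher and 2 lower, 17.9% and 2.56% beside 12.1% and 10.5% of all tested genes, with 3 higher without B16-F1R2 replicate 1 or B16-F1R2L replicate 2 and 6 without B16-F1R2 replicate 2. Hpse, the heparanase that trims syndecan chains, was at 12.7 FPKM in both B16-F1 libraries, 7.16 and 5.72 in the lymph node line and 14.0 and 14.1 in the lung line. B16-F1R2 was thus the low line, and B16-F1R2L was above it by 1.12 ± 0.11 on the log2 scale with an adjusted p of 0.0031. Pld1, a phospholipase D, was also lowest in B16-F1R2, at 5.74 and 6.26, then 3.96 and 3.66, then 5.93 and 5.90 FPKM, a difference of 0.62 ± 0.09 with an adjusted p of 0.0086, or 0.0513 without B16-F1R2L replicate 2. The 2 lower genes were Tbc1d10a, which switches off RAB27A and RAB35, by 0.36 ± 0.08 with an adjusted p of 0.030, and Sgms1, by 0.36 ± 0.08 with an adjusted p of 0.028. The first call was lost in 8 of 16 alternative analyses, among them those without any 1 library but B16-F1R2L replicate 1, and the second in 9, among them those without any 1 of the 6, with adjusted p up to 0.146 and 0.119.

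Pigment cell genes moved with these comparisons. The summed level of 9 melanocyte markers was 15380 and 15430 FPKM in the parental cells. It was 8322 and 8098 in the lymph node line and 9141 and 9127 in the lung line. Against B16-F1, 8 of the 9 were lower in either variant, or 88.9%. The shares of lower genes among all tested genes were 27.2% for the lymph node line and 27.1% for the lung line. Among genes averaging at least 10 FPKM they were 32.0% and 34.9%. The difference between these shares was not tested. The exception was Mitf, at 92.3 and 88.7 FPKM in the parental cells, 79.5 and 83.6 in the lymph node line and 112 and 127 in the lung line, which was higher in the lung line than in the parental cells by 0.40 ± 0.07 on the log2 scale with an adjusted p of 0.0032, and higher than in the lymph node line by 0.55 ± 0.07 with an adjusted p of 0.0066. Tyr, the tyrosinase gene, was at 192 and 186 FPKM in the parental cells against 14.7 and 14.2 in the lymph node line. Their part in the lower levels of the vesicle genes was not tested, and in RNA of whole cultures fewer cells of a kind and less RNA per cell cannot be told apart. Of 7 immune markers 3 were listed at 0 throughout and the sum rose from 1.02 and 1.82 FPKM in the parental cells to 13.8 and 14.3 in the lymph node line and 18.2 and 18.7 in the lung line, most of it from Cd79a. Of 8 fibroblast and stroma markers 3 were at 0 throughout and the sum was 10.4 and 11.9 FPKM in the parental cells, 25.02 and 22.99 in the lymph node line and 10.2 and 10.9 in the lung line, the higher values coming with Col1a1 at 16.8 and 17.1 FPKM. Pdpn went the other way, at 9.44 and 10.7 FPKM in the parental cells, then 6.92 and 4.67, then 5.53 and 6.37. It was called lower in both variants, with adjusted p of 0.010 and 0.014 by limma. Of 5 endothelial markers 3 were at 0 throughout and the sum stayed within 1.55 to 2.38 FPKM, while the other 2 went opposite ways: Pecam1 was listed at 0 in both B16-F1 libraries and was at 0.758 and 0.752 FPKM in the lymph node line and 1.09 and 1.26 in the lung line, and Prox1 was at 1.66 and 1.63, then 0.790 and 0.969, then 1.16 and 1.12 FPKM. The sum of 4 epithelial markers, 1 of them at 0 throughout, stayed within 0.281 to 0.578 FPKM. The part of these markers in the results was not tested either.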

How the data were processed

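RNA of 3 untreated mouse melanoma lines, 2 libraries each, was sequenced by the authors as 50-base single-end reads from a stranded poly(A) kit. The authors aligned the reads to NCBI37/mm9 with TopHat 2.0.10, Bowtie 1.0.0 and SAMtools 0.1.1.9, allowing 2 mismatches and 20 positions a read, and tested with DESeq2. The deposited values are FPKM per gene and library. The submitters' processing notes also name FastQC 0.10.1 and Cuffnorm. The gene annotation and the strand setting of the counting are not given in the sources used here.

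FPKM are not counts, so log2(FPKM + 0.1) of genes with at least 1 FPKM in 2 libraries was modelled by limma 3.58.1 under R 4.3.3 (eBayes with trend after lmFit and contrasts.fit, two-sided), with all 6 libraries in 1 fit, no replicate block, and Benjamini-Hochberg adjustment over the 11379 tested genes at a threshold of 0.05. The fit was tested on simulated data. An exact permutation test of 2 against 2 libraries cannot go below 0.333 and was not used. Depth was estimated from the most common value of FPKM times transcript length among low genes with 1 annotated transcript. That peak held a share of 0.0942 to 0.106 of the genes used, so the estimate is rough. Depth limits the precision of low genes. The alternatives were other pseudocounts (1 and 0.01), other filters (none and 5 FPKM), 3 scalings, eBayes without a trend, a replicate block, fits of 4 libraries, a minimum log2 change of 1, and leaving out each library.

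The 42 genes, the 89 further genes and the markers were chosen with earlier results of these data known. Values in every library are given for at most 25 called genes, those with the largest changes, and the others by ranges. Of the further genes, the 3 largest called changes in each direction in B16-F1R2 and the 2 in each direction between the variants are named. Smpd1, Smpd2 and Smpd4 are also set beside Smpd3. Ubap1, Mvb12a, Mvb12b, Vps37d and Chmp3 are given with their complexes. Positions are from GENCODE vM1 and the mm9 genome. A planned description of protein motifs was not made.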

Additional observations from a re-analysis of the deposited data

How the results depend on the processing

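No called vesicle gene reversed its direction in the 16 alternative analyses run gene by gene, and 19 of 27 calls against B16-F1 in the lymph node line, 16 of 22 in the lung line and 1 of 6 between the variants held in all of them. Requiring a log2 change of at least 1 left 1 vesicle gene higher and 0 lower by limma in either variant and 0 in either direction between the variants, and of the further genes 2 higher and 3 lower in the lymph node line, 3 and 1 in the lung line, and 1 and 0 between the variants. With libraries rescaled to a sum of 1000000, 10 vesicle genes were higher and 23 further genes lower in B16-F1R2L than in B16-F1, and between the variants 12 vesicle genes were higher, 0 lower and 1 further gene lower. Between the variants, eBayes without a trend called 3 vesicle genes higher, 0 lower and 1 further gene lower. The fit of 4 libraries called 1 vesicle gene higher and 0 lower, and 0 further genes lower. A filter of 5 FPKM and median-of-ratios scaling each called 2 vesicle genes lower, and no filter called 0 further genes lower. Where these counts between the variants were 0, the lower vesicle genes at an unadjusted p under 0.05 were 1 after rescaling, 3 without a trend and 4 with 4 libraries, the lower further genes were 4 without a filter and 3 with 4 libraries, and no gene was added where the minimum change applied. The causes were not tested. Leaving out 1 library gave 4 to 6 vesicle genes higher and 16 to 21 lower in the lymph node line, 4 to 6 and 14 to 17 in the lung line, and 1 to 3 and 0 to 1 between the variants. For the further genes it gave 7 to 10 and 31 to 41, 8 to 14 and 24 to 35, and 3 to 10 and 0 to 1. The counts of 0 among these had 1 to 3 vesicle genes and 3 to 5 further genes lower at an unadjusted p under 0.05. A lone library is then assumed to vary like the other lines.

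The replicate numbers did not pair the libraries: the differences between replicates 1 and 2, over genes, correlated at 0.0519, -0.102 and 0.0789 between the lines. With a replicate block, the vesicle genes gave 6 higher and 20 lower calls in the lymph node line, 5 and 16 in the lung line, and 4 and 1 between the variants, and of the further genes 12 and 40, 14 and 37, and 12 and 2. The calls lost under it among vesicle genes were those of Stam in the lymph node line, Rab27a in the lung line and Sdc3 between the variants.

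The log2 change of a low gene moved with the value added to FPKM: that of Unc13d in B16-F1R2 was 4.05 with 0.1 added, 1.96 with 1 and 4.95 with 0.01. Chmp4c, Rab27b and Smpd3 could not be compared at this depth.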

Other observations

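The neighbours of Vps37c were looked at in the same way as those of Rab7l1, after its values were seen. Of the 10 tested genes closest to it, the 9 at 1 FPKM or more in both B16-F1 libraries had a median log2 fold change of 0.05 in B16-F1R2 and -0.08 in B16-F1R2L, 1 being called higher and 2 lower in the first comparison and 2 higher and 3 lower in the second, or 11.1% and 22.2%, then 22.2% and 33.3%, beside 28.2% and 27.2%, then 29.5% and 27.1% of all tested genes, with Ddb1, the nearest upstream, at 217 and 212 FPKM in the parental cells and 195 and 193 in the lymph node line. Slc15a3, the nearest downstream and a lysosomal peptide and histidine transporter, went from 0.0353 and 0 FPKM in the parental cells to 1.08 and 0.973 in the lymph node line and 1.77 and 1.52 in the lung line. Tmem132a, the next gene, went from 20.8 and 21.1 FPKM to 34.5 and 35.0 in B16-F1R2, a call that limma kept in all 16 alternative analyses with adjusted p from 0.000232 to 0.0117. In the lung line it was at 30.2 and 24.2 FPKM, and that call was lost without either B16-F1 library, with adjusted p up to 0.0876. Tmem109, the gene after it, fell as Vps37c did, from 47.4 and 49.8 FPKM to 37.98 and 37.7 in the lymph node line and 32.9 and 28.9 in the lung line, with adjusted p of 0.0051 and 0.00041 by limma.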
